A study of Mus musculus with 46 samples.

Results

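Transcripts of the inflammasome, of pyroptosis and of necroptosis were followed in adult mouse hearts through 9 genes, chosen by their gene names from the 55359 genes of a read count table. They are Ripk1, Ripk3, Mlkl and Casp8 of the necroptosis and death receptor axis, the inflammatory caspases Casp1 and Casp4, the pore-forming Gsdmd, and the inflammasome sensor Nlrp3 with its adaptor Pycard. Each name stood on 1 row of the table, so all 9 genes were found, and all 9 passed the filter on low counts in both kits. Nlrp3 passed it only with the libraries of Lmna F/F hearts, as described below. The rule goes by gene names and uses no measured value, but the genes were picked with earlier results of these data known.

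Every mouse carried a single Myh6MCM transgene (spelled My6MCM in some labels), a Cre recombinase driven by a cardiomyocyte promoter and switched on by tamoxifen, and every mouse had been given tamoxifen at 6 to 8 weeks of age. The genotypes therefore differ at Lmna, which encodes lamins A and C and is floxed in F/F mice, and in the second set also at cGas, the cytosolic DNA sensor (gene symbol Cgas). In the first set, made with the NEBNext directional poly(A) kit, 4 Lmna F/F and 5 Lmna +/+ hearts were taken 1 week after tamoxifen, 2 and 3 at 11 days, and 5 and 7 at 2 weeks. In the second set, made with the QuantSeq 3′ kit at 2 weeks, there were 4 Lmna F/F cGas null/null, 6 Lmna F/F cGas +/+, 4 Lmna F/+ cGas null/null and 6 Lmna F/+ cGas +/+ hearts. Cre acts in cardiomyocytes, while the RNA came from whole perfused hearts with all their cell types. Each library title carries a number of its own, as separate hearts would, but the labels do not say what that number stands for. The p-values therefore speak to the spread among libraries, part of which may be technical.

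An inflammasome forms when a sensor such as NLRP3 recruits caspase-1 through the adaptor ASC, the product of Pycard, after which caspase-1 matures interleukin-1β and interleukin-18 and cuts gasdermin D into a fragment that opens pores in the plasma membrane. The mouse Casp4 gene encodes the caspase also called caspase-11, which binds bacterial lipopolysaccharide in the cytosol and cuts gasdermin D directly. In necroptosis the kinases RIPK1 and RIPK3 lead to phosphorylation of MLKL, which breaks the membrane, and caspase-8 holds this route back. All of these steps act on proteins, and the values below are transcript levels. In the heart, macrophages are a known site of inflammasome activity, and RIPK3 and MLKL have been studied in injured cardiomyocytes.

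The windows before the transcription starts are shown for Casp4 and Ripk1, in which the motif matches of the 9 genes were found, and for Casp1, the neighbour of Casp4, which held none. RefSeq promoter windows (GRCm38.p6, 250 bases before to 50 after a start, written 5′ to 3′ on the gene's strand) were at hand for 8 of the 9 genes, in 11 windows, and not for Gsdmd. Capitals mark matches on either strand to an NF-κB-like motif (GGG, any 2 bases, TTTCC) in Casp4, and to a GAS-like motif (TTCNNNGAA) and an ISRE-like motif (GAAA, any 2 bases, GAAA) in Ripk1, the last 2 being overlapping matches near the start.
Casp4, chr9:5308599-5308898, plus strand: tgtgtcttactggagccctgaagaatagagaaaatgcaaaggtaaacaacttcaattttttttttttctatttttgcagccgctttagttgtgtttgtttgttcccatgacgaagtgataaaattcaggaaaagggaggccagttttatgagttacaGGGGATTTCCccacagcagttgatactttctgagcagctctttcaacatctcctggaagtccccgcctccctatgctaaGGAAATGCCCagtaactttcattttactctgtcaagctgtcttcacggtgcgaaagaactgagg
Casp1, chr9:5298267-5298566, plus strand: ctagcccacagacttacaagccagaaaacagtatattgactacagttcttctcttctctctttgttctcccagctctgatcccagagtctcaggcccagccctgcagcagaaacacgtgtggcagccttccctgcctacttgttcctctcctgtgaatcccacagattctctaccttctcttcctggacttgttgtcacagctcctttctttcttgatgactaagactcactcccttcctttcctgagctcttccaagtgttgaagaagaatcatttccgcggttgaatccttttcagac
Ripk1, chr13:34002624-34002923, plus strand: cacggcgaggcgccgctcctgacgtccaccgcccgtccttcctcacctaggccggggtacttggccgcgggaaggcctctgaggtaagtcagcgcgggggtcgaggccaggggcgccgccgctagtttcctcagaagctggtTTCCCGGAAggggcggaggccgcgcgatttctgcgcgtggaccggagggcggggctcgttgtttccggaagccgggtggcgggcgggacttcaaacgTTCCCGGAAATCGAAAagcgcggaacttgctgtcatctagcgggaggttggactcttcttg
The Casp4 matches began 93 and 14 bases before the start, and a second Casp4 window holds the same matches, 104 and 25 bases before its own start. In Ripk1 the GAS-like matches began 108 and 11 bases before the start and the ISRE-like match 5 bases before it, while the other Ripk1 window held no match. Of 32851 RefSeq windows, 1.63% held the NF-κB-like motif, 8.30% the GAS-like motif and 3.44% the ISRE-like motif, so such matches are found in many promoters. Casp1, the direct neighbour of Casp4 with 0 protein-coding genes between them, held none of these letters in its window. A match describes the letters and not a bound factor. The Cgas gene also lies on chromosome 9, and Lmna lies on chromosome 3.

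Libraries held 8477358 to 25856892 counts in the NEBNext set and 22099181 to 33993289 in the QuantSeq set. As a check of the labels, Lmna averaged 33.3 ± 4.38 normalised CPM (counts scaled to library size with TMM factors) in F/F and 59.0 ± 9.22 in +/+ hearts of 1 week (SD, n = 4 and 5), with no overlap. At 2 weeks it averaged 85.2 ± 26.9 in F/F and 113 ± 7.02 CPM in +/+ hearts (SD, n = 5 and 7), with overlap. By edgeR Lmna was not called at 1 week (log2 fold change -0.82 ± 0.22, SE, adjusted p = 0.315). Nor was it called at 2 weeks (-0.46 ± 0.21, SE, adjusted p = 0.0983). A gene that is not called below may therefore still differ between genotypes. At 11 days the lowest Lmna value was in a library labelled +/+ (52.1 CPM, against 58.3 and 58.4 CPM in those labelled F/F), so the 11 day genotypes below are those of the labels. In QuantSeq, Lmna was not called between F/F and F/+ hearts with cGas (log2 fold change -0.13 ± 0.16, SE), and where its 3′ tags lie relative to the deleted part was not determined. Cgas averaged 0.876 ± 0.258 CPM in Lmna F/F cGas null hearts and 2.88 ± 0.765 CPM in Lmna F/F cGas +/+ hearts (SD, n = 4 and 6). Cardiomyocyte markers summed to at least 23239 CPM in every library.

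At 2 weeks after tamoxifen, 8 of the 9 genes were higher in Lmna F/F than in Lmna +/+ hearts, with edgeR's quasi-likelihood test and Benjamini-Hochberg adjustment over all 15627 genes tested, and 0 were lower. Of all genes tested, 29.2% were called in this comparison, 16.2% as higher and 13.0% as lower. The median log2 fold change of the 9 genes was 1.10, beside 0.04 over all genes tested. Nlrp3 and Casp4 had the largest fold changes of the 9 genes, and Pycard was the gene that did not pass. Too few +/+ libraries of Nlrp3 reached the cutoff of the low-count filter. It was tested because of its F/F libraries, so its rise is not independent of the filter. In 7 of the 9 genes the F/F and +/+ libraries did not overlap, the exceptions being Gsdmd and Pycard. Of all genes tested, 12.4% had no overlap between these libraries, and 6.68% had all F/F libraries above all +/+ libraries. In bulk tissue, fewer cells of a type and less RNA per cell cannot be told apart, and the same holds for more of either.

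**Figure D1:**
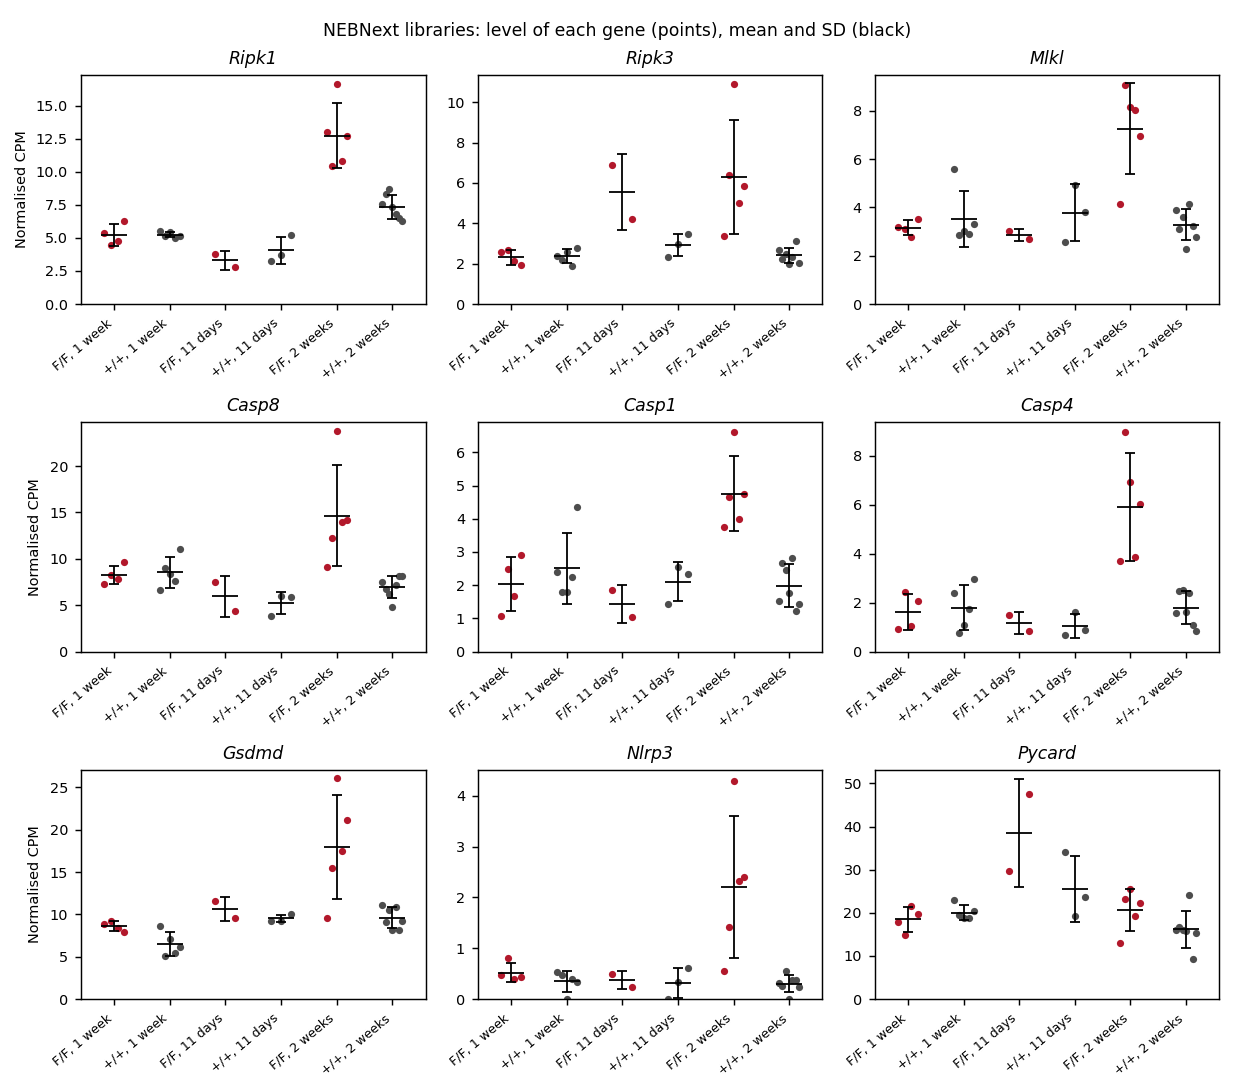
Levels of the 9 genes in the 26 NEBNext libraries, as normalised CPM (y axis), by genotype and time after tamoxifen (x axis); each point is a library, and the black lines are the mean and SD. Lmna F/F libraries of 2 weeks lie above the Lmna +/+ libraries of 2 weeks in 7 of the 9 genes, beside 6.68% of all genes tested, while at 1 week 0 of the 9 are separated, beside 2.73%.

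Among the necroptosis genes, Ripk1, the kinase at the branch between survival and death signalling, had 13.0, 10.5, 16.7, 10.8 and 12.7 CPM in the 5 F/F hearts of 2 weeks, against a lowest, median and highest value of 6.25, 7.33 and 8.69 CPM in the 7 +/+ hearts. Every F/F library was above every +/+ library. The log2 fold change was 0.86 ± 0.14 (SE, adjusted p = 0.000109 by edgeR).

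Ripk3, the kinase that acts on MLKL, had 3.37, 6.38, 10.9, 5.01 and 5.86 CPM in F/F hearts, against 2.00 to 3.10 CPM with a median of 2.34 in +/+ hearts. Library 3 of the F/F hearts was the highest, and library 1 lay just above the +/+ range. This gave a log2 fold change of 1.33 ± 0.22 (SE, adjusted p = 0.000102 by edgeR).

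Mlkl, the membrane-breaking executioner of necroptosis, had 4.15, 9.06, 8.15, 8.02 and 6.95 CPM in F/F hearts, against a lowest, median and highest value of 2.29, 3.24 and 4.14 CPM in +/+ hearts. Library 1 of the F/F hearts barely cleared the highest +/+ library, and the other F/F libraries stood well apart from it. Its log2 fold change was 1.10 ± 0.22 (SE, adjusted p = 0.000719 by edgeR).

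Casp8, the protease that starts death receptor apoptosis and restrains necroptosis, had 9.15, 12.3, 23.7, 13.98 and 14.2 CPM in F/F hearts, against a lowest, median and highest value of 4.81, 7.17 and 8.19 CPM in +/+ hearts. Again F/F library 3 was highest and library 1 lowest. Its log2 fold change was 0.94 ± 0.17 (SE, adjusted p = 0.000293 by edgeR), so that the kinases, their executioner and the protease that opposes them were all higher in F/F hearts.

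Of the inflammatory caspases, Casp4 had 3.70, 8.96, 6.91, 3.86 and 6.03 CPM in F/F hearts of 2 weeks, against a lowest, median and highest value of 0.852, 1.63 and 2.51 CPM in +/+ hearts. Each F/F library was above the whole +/+ range. The log2 fold change was 2.08 ± 0.34 (SE, adjusted p = 0.000104 by edgeR).

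Casp1, the caspase that matures interleukin-1β, had 3.76, 4.65, 6.62, 3.99 and 4.73 CPM in F/F hearts, against a lowest, median and highest value of 1.22, 1.78 and 2.80 CPM in +/+ hearts. All F/F libraries were higher, and they spread less among themselves than those of Casp4. For Casp1 the log2 fold change was 1.44 ± 0.28 (SE, adjusted p = 0.000526 by edgeR). Casp1 and Casp4 are paralogs, and no source used here says how reads common to such genes were counted.

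Gsdmd, which encodes the pore former gasdermin D, had 9.59, 15.5, 26.05, 17.5 and 21.1 CPM in F/F hearts, against a lowest, median and highest value of 8.14, 9.21 and 11.1 CPM in +/+ hearts. Library 1 of the F/F hearts lay inside the +/+ range and the other 4 above it. That is a log2 fold change of 0.79 ± 0.19 (SE, adjusted p = 0.00305 by edgeR).

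Nlrp3, the sensor, was the least abundant of the 9 genes, with 0.561, 1.42, 4.30, 2.32 and 2.39 CPM in F/F hearts of 2 weeks, against a lowest, median and highest value of 0, 0.316 and 0.552 CPM in +/+ hearts. Library 1 of the F/F hearts was almost level with the highest +/+ library, and library 3 stood far above it. Fitted on the log2 scale, the change was 2.48 ± 0.55 (SE, adjusted p = 0.00147 by edgeR). No read of Nlrp3 was counted in 3 of the 26 NEBNext libraries, and its highest count was 163, so its levels are the least precise of the 9 genes.

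Pycard, which encodes the adaptor ASC, had 13.0, 23.3, 25.6, 19.2 and 22.4 CPM in F/F hearts, against a lowest, median and highest value of 9.40, 15.9 and 24.1 CPM in +/+ hearts. The groups overlapped over most of their range. The log2 fold change was 0.35 ± 0.19 (SE, 95% interval -0.03 to 0.74, adjusted p = 0.160 by edgeR). Without F/F library 1 it was 0.59 ± 0.19 (SE, adjusted p = 0.0155 by edgeR), and without TMM factors it was 0.63 ± 0.21 (SE, adjusted p = 0.0232 by edgeR), a scaling that moved the median of all genes tested to 0.29 from 0.04.

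The 5 F/F libraries of 2 weeks were unequal. Library 3 was the highest in 7 of the 9 genes and library 1 the lowest in 8 of 9. The 9 genes summed to 60.3, 92.0, 128.9, 84.7 and 96.3 CPM in the F/F libraries, against a lowest, median and highest sum of 41.3, 51.6 and 61.0 CPM in the +/+ libraries, so that the sum of F/F library 1 lay inside the +/+ range. Markers of macrophages and monocytes were also highest in library 3 and lowest in library 1. Their sum was 1059, 2608, 4736, 2235 and 3069 CPM in the F/F libraries, against 589.9 to 903 CPM in the +/+ libraries. Of the 18 markers in that list 17 were higher in F/F hearts and 0 lower, and 0 of them were at 0 throughout either group. T and NK cell markers were higher for 7 of 10 and summed to 4.99 to 19.4 CPM in F/F, against 2.55 to 5.06 CPM in +/+ hearts. Fibroblast markers were higher for 5 of 8 and lower for 1, with a median log2 fold change of 0.67. Endothelial markers were lower for 3 of 7, with a median of -0.48, and cardiomyocyte markers for 9 of 11, with a median of -0.69. Atrial cardiomyocyte markers were higher for 1 of 5 and lower for 0, with a median of -0.66. Their sum was 426 to 3224 CPM in F/F, against 321 to 1291 CPM in +/+ hearts. These marker counts stand beside 16.2% of all genes called as higher and 13.0% as lower. The 1 of 5 atrial markers is near that share and is no result about its list. The part of these cell types in the levels of the 9 genes was not tested.

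**Figure D2:**
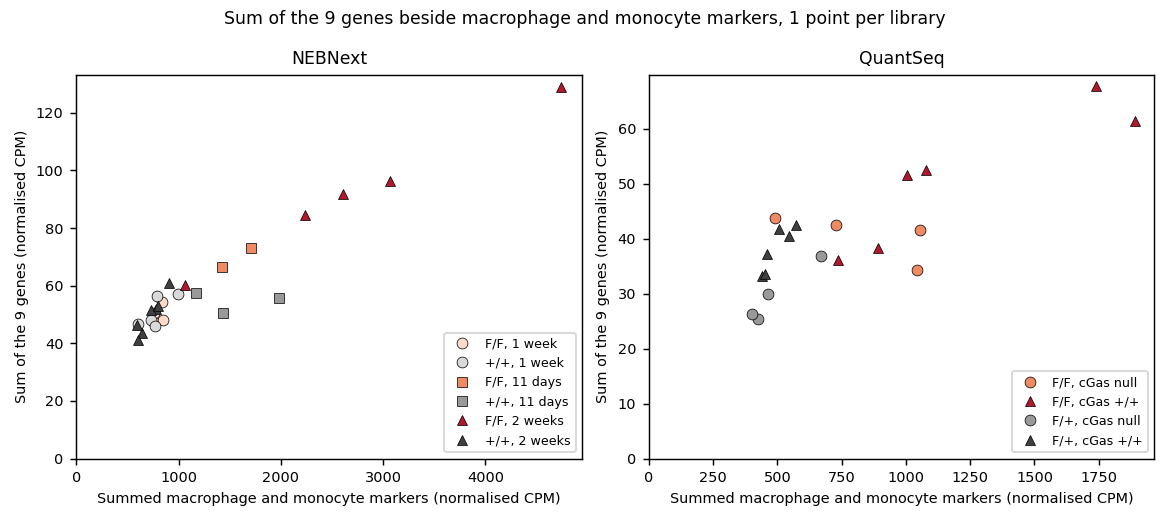
Summed level of the 9 genes (y axis, normalised CPM) beside the summed level of the 18 macrophage and monocyte markers (x axis, normalised CPM), with 1 point per library, for the NEBNext kit (left) and the QuantSeq kit (right). The Lmna F/F libraries of 2 weeks reach 128.9 CPM on the y axis and 4736 CPM on the x axis in the NEBNext set, and 1 of them lies close to the Lmna +/+ libraries.

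The libraries of 2 weeks came from 2 sequencing pools, and the fit carried the pool as a term. In pool KIUC035, with 3 F/F and 2 +/+ libraries, all 9 genes were called, among 4894 of 15068 genes tested, with log2 fold changes from 0.85 for Pycard to 3.37 for Nlrp3 by edgeR. In pool KIUC033, with 2 F/F and 5 +/+ libraries, 0 of the 9 were called, among 349 of 13970 genes tested. There the log2 fold changes were 0.68 for Ripk1 (adjusted p = 0.0547 by edgeR), 1.29 for Casp4 (adjusted p = 0.0662) and 1.35 for Nlrp3 (adjusted p = 0.276), with 0.20 for Gsdmd and -0.20 for Pycard. The other 4 genes had log2 fold changes from 0.63 to 0.90 in that pool. F/F library 1, the one with the low marker sum, belongs to pool KIUC033.

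One week after tamoxifen, 0 of the 9 genes were called between F/F and +/+ hearts by edgeR, with 0 at an unadjusted p under 0.05 and 0 by DESeq2. Of all genes tested, 0.0256% were called, 0.00640% as higher and 0.0192% as lower, and 2.73% had no overlap between the F/F and +/+ libraries. The log2 fold changes ran from -0.36 for Casp1 to 0.42 for Gsdmd, with a median of -0.06 beside 0.00 over all genes tested. Gsdmd had 8.91, 9.24, 8.37 and 7.93 CPM in F/F hearts, against 8.68, 5.12, 7.11, 5.41 and 6.19 CPM in +/+ hearts. The F/F libraries of Gsdmd lay high, but 1 +/+ library was among them, and its adjusted p was 0.506 by edgeR. For Casp4 the values were 0.929, 2.43, 1.05 and 2.05 CPM in F/F hearts, against 2.39, 0.773, 1.09, 1.73 and 2.98 CPM in +/+ hearts, so both groups covered the same range. The upper ends of the 95% intervals were at most 0.84 for the 8 genes other than Nlrp3, whose interval ran from -0.94 to 1.76. Macrophage and monocyte markers summed to 754 to 847 CPM in F/F and 605 to 999 CPM in +/+ hearts of 1 week.

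At 11 days 0 of the 9 genes were called by edgeR and 0 by DESeq2, with 2 at an unadjusted p under 0.05 in edgeR, and 0% of all genes tested were called. Without +/+ library 1 of 11 days, 235 genes were called, with 0 of the 9 among them. Ripk3 was the 1 gene of the 9 whose groups did not overlap, beside 18.1% of all genes tested, with 6.89 and 4.20 CPM in the hearts labelled F/F, against 2.35, 2.98 and 3.46 CPM in those labelled +/+. Its log2 fold change was 0.95 ± 0.31 (SE, adjusted p = 0.448 by edgeR). Pycard had 29.7 and 47.4 CPM in the hearts labelled F/F, against 34.05, 19.2 and 23.6 CPM in those labelled +/+, which overlap, with a log2 fold change of 0.53 ± 0.26 (SE, adjusted p = 0.592 by edgeR). Ripk1, Mlkl and Casp1 had negative log2 fold changes, of -0.27, -0.42 and -0.49, none past the test. The 95% intervals of Casp4 (-0.90 to 1.34), Casp8 (-0.32 to 0.75) and Mlkl (-1.11 to 0.28) lie below the fold changes of these genes at 2 weeks, while that of Ripk3 (0.30 to 1.59) holds it. The difference between the 2-week and the 11-day effects was not tested. Macrophage and monocyte markers summed to 1421 and 1708 CPM in the hearts labelled F/F, against 1167 to 1981 CPM in those labelled +/+. Atrial cardiomyocyte markers summed to 476 and 491 CPM, against 775 to 3077 CPM. Their median log2 fold change was -5.07, with 4 of 5 at an unadjusted p under 0.05 by edgeR. It was -1.59 for smooth muscle and pericyte markers and -0.73 for fibroblast markers. For endothelial and cardiomyocyte markers it was 0.23 and -0.01. By edgeR 0 of these markers were called, and their part in the levels of the 9 genes was not tested.

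The difference between the 2-week and the 1-week effect was tested as such, since time and sequencing pool coincide and levels are not compared across times. By edgeR 6 of the 9 genes were called above 0, beside 12.4% of all genes tested called, 6.52% above and 5.88% below 0. Leaving out 1 library moved the total of 1938 genes called by more than 1.5 times in 6 cases, to between 1130 and 1278 without F/F library 1 or 3 of 1 week, F/F library 2 or 3 of 2 weeks or +/+ library 6 of 2 weeks, and to 2966 without F/F library 1 of 2 weeks, with 5 to 7 of the 9 called. The 6 were Casp4 at 2.26 ± 0.53 (SE, adjusted p = 0.00876), Casp1 at 1.79 ± 0.43 (0.00939), Ripk3 at 1.39 ± 0.34 (0.0106), Mlkl at 1.24 ± 0.35 (0.0210), Casp8 at 1.03 ± 0.26 (0.0133) and Ripk1 at 0.91 ± 0.22 (0.00976), all on the log2 scale. Nlrp3 had the large but imprecise difference of 2.08 ± 0.88 (SE, adjusted p = 0.117 by edgeR). Gsdmd at 0.37 and Pycard at 0.41 did not pass either. The call of Mlkl was lost, with adjusted p between 0.0507 and 0.0641, when F/F library 1 of 1 week, F/F library 2 or 3 of 2 weeks or +/+ library 7 of 2 weeks was left out.

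**Figure D3:**
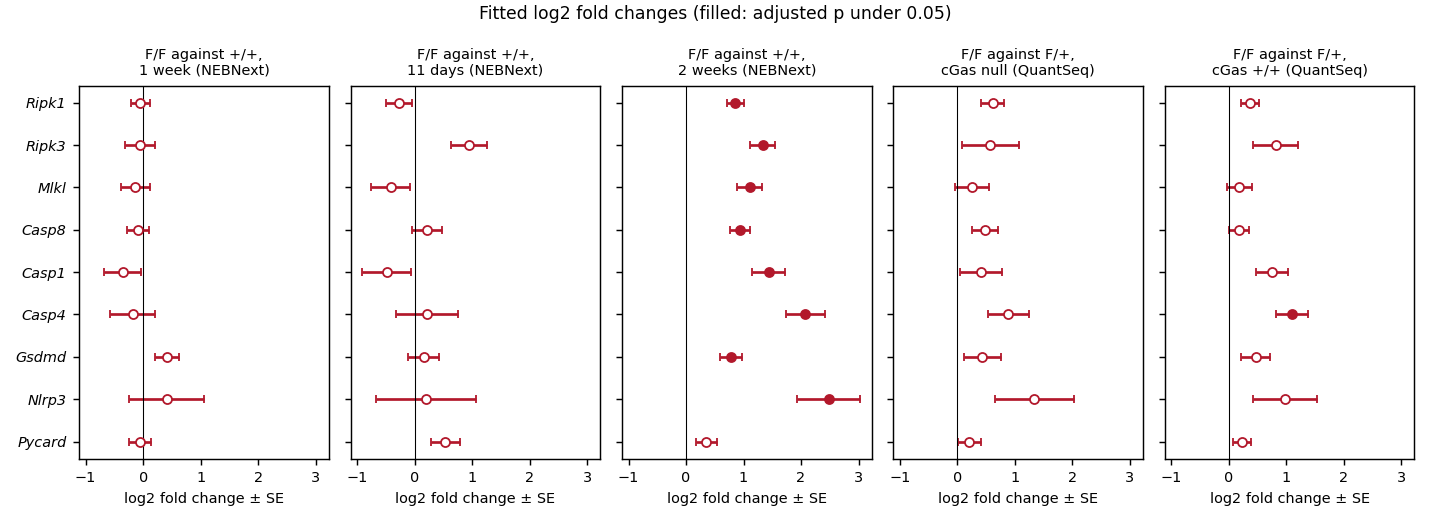
Fitted log2 fold changes with their SE (x axis) of the 9 genes (rows) in 5 comparisons, with filled points where the adjusted p of edgeR was under 0.05. At 2 weeks in the NEBNext set 8 of 9 points are filled, in the QuantSeq set with cGas 1 of 9 (Casp4), and in the other panels 0.

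In the QuantSeq hearts with cGas, set against heterozygous F/+ rather than +/+ hearts, all 9 log2 fold changes were above 0 and 1 gene, Casp4, was called as higher in Lmna F/F hearts. For Nlrp3 no F/+ library reached the cutoff of the low-count filter, so its sign is not independent of the filter. Of the 14812 genes tested, 4.63% were called in this comparison, 3.74% as higher and 0.891% as lower. The total of 686 genes fell to between 190 and 427 without F/+ library 1 or 3 or F/F library 1, 2 or 5, and was 1169 without F/F library 4. The median log2 fold change was 0.47 for the 9 genes and -0.01 over all genes tested. Casp4 had a lowest, median and highest value of 3.66, 7.06 and 10.8 CPM in the 6 F/F hearts, against 1.60, 3.24 and 5.49 CPM in the 6 F/+ hearts. Most F/F libraries stood above the F/+ range, and 2 lay inside it. The log2 fold change was 1.10 ± 0.28 (SE, adjusted p = 0.0260 by edgeR). The call does not hold without each of 7 libraries in turn (F/+ library 1, 3 or 5, or F/F library 1, 2, 3 or 5), with adjusted p from 0.0534 to 0.114. Among male libraries alone the log2 fold change was 1.58 ± 0.41 (SE, adjusted p = 0.0504 by edgeR).

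Casp1 had a lowest, median and highest value of 3.01, 7.65 and 10.9 CPM in F/F hearts with cGas, against 2.93, 4.19 and 5.14 CPM in F/+ hearts with cGas. Libraries 4 and 6 of the F/F hearts were as low as the F/+ libraries and the other 4 were above them. The log2 fold change was 0.76 ± 0.28 (SE, adjusted p = 0.133 by edgeR), and it passed without F/F library 4 (0.87, adjusted p = 0.0442) or 6 (0.95, adjusted p = 0.0394). The pattern of libraries was shared: F/F libraries 1 and 5 were among the top 2 of the 6 for 8 and 7 of the 9 genes, and library 4 was the lowest for 6. Macrophage and monocyte markers summed to 1738 and 1892 CPM in libraries 1 and 5 and to 736 and 891 CPM in libraries 4 and 6, against 442 to 574 CPM in the 6 F/+ libraries. Of those 18 markers 15 were higher in F/F hearts with cGas. Cardiomyocyte markers had a median log2 fold change of -0.45 and atrial cardiomyocyte markers of 2.32, with 0 of them called by edgeR. The part of these markers in the levels of the 9 genes was not tested.

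The remaining genes did not pass in hearts with cGas. Nlrp3 had log2 0.97 ± 0.55 and Ripk3 0.82 ± 0.39 (SE), both with few counts, at most 27 and 49 in a QuantSeq library. Gsdmd at 0.47, Ripk1 at 0.37, Pycard at 0.23, Mlkl at 0.19 and Casp8 at 0.18 were smaller. The 95% interval of Mlkl, from -0.27 to 0.64, and that of Casp8, from -0.17 to 0.53, lie below the fold changes that these genes had against +/+ hearts in the NEBNext set (1.10 and 0.94). The kits count different parts of a transcript, the reference genotypes differ and no fit joined the kits, so this contrast was not tested.

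**Figure D4:**
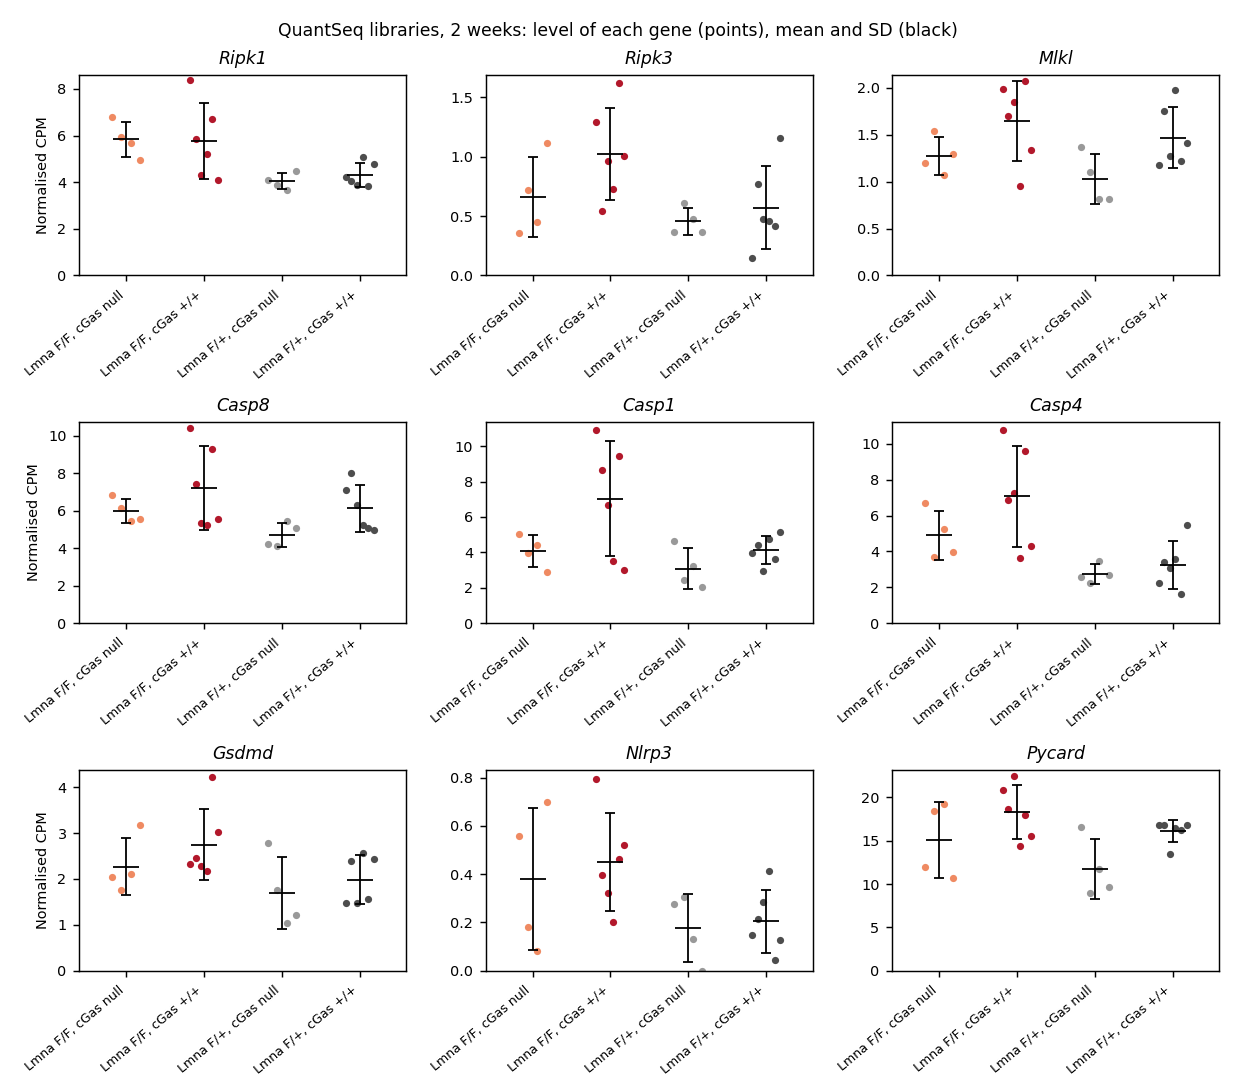
Levels of the 9 genes in the 20 QuantSeq libraries of 2 weeks, as normalised CPM (y axis), by Lmna and cGas genotype (x axis); each point is a library, and the black lines are the mean and SD. Lmna F/F hearts with cGas had the highest mean in 8 of the 9 genes and F/+ cGas null hearts the lowest in all 9, and of 27 pairs of groups next to each other in the order of means, 26 overlap. The means are not adjusted for sex, and all 4 F/+ cGas null libraries were from males. How many of all genes have this order was not counted.

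In the hearts without cGas, 0 of the 9 genes were called between Lmna F/F and F/+ by edgeR and 0 by DESeq2, with 3 at an unadjusted p under 0.05, and 0.527% of all genes tested were called, 0.500% as higher and 0.0270% as lower. The total of 78 genes ranged from 7 to 175 with 1 library left out, moving by more than 1.5 times for each of the 8 libraries except F/+ cGas null library 1, while 0 of the 9 were called each time. The log2 fold changes were again all above 0, with a median of 0.48 beside -0.02 over all genes tested. The sign of Nlrp3 is again not independent of the filter, whose cutoff only F/F libraries reached. Ripk1 had 6.79, 5.95, 5.68 and 4.96 CPM in F/F cGas null hearts, against 4.11, 3.90, 3.66 and 4.50 CPM in F/+ cGas null hearts, with no overlap and a log2 fold change of 0.61 ± 0.20 (SE, adjusted p = 0.204 by edgeR). Casp4 had 6.71, 3.69, 5.23 and 3.95 CPM in F/F cGas null hearts, against 2.56, 2.22, 3.49 and 2.65 CPM in F/+ cGas null hearts. These did not overlap either, and the log2 fold change was 0.88 ± 0.35 (SE, adjusted p = 0.344 by edgeR). Casp8 was the third gene without overlap, at a log2 fold change of 0.48 ± 0.22 (SE, adjusted p = 0.446 by edgeR). These are 3 of the 9 genes, beside 5.44% of all genes tested. Macrophage and monocyte markers summed to 491 to 1056 CPM in F/F and 402 to 671 CPM in F/+ hearts without cGas. The median log2 fold change was -0.32 for cardiomyocyte and -1.34 for atrial cardiomyocyte markers, with 0 of them called by edgeR. All 4 F/+ cGas null libraries were from males.

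The effect of Lmna F/F without cGas minus the effect with cGas was tested directly, and by edgeR 0 of the 9 genes and 0% of all genes tested were called. None of the 9 reached an unadjusted p under 0.05, and DESeq2 called 0. For Casp4 the difference was -0.22 on the log2 scale, with a 95% interval of -1.18 to 0.75. For Casp1 it was -0.35 (-1.34 to 0.64), for Ripk1 0.24 (-0.32 to 0.80) and for Casp8 0.30 (-0.29 to 0.89). The intervals of Ripk3 (-1.63 to 1.14) and Nlrp3 (-1.50 to 2.22) are wider. These intervals hold 0. All but that of Ripk1, whose effect with cGas was 0.37, also hold a loss as large as the effect with cGas. They therefore do not show that cGas makes no difference.

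Within Lmna F/F hearts, cGas null libraries had lower fitted levels than cGas +/+ libraries in 8 of the 9 genes, and by edgeR 0 of the 9 and 0% of all genes tested were called. The median log2 fold change was -0.32 for the 9 genes, 0.00 over all genes tested and -0.56 for macrophage and monocyte markers. Casp1 had 5.03, 3.94, 4.41 and 2.87 CPM in the F/F cGas null hearts, against the 3.01 to 10.9 CPM of the F/F cGas +/+ hearts given above. The groups overlapped, and the log2 fold change was -0.79 ± 0.31 (SE, unadjusted p = 0.0173, adjusted p = 0.850 by edgeR), the gene of the 9 with an unadjusted p under 0.05. Within Lmna F/+ hearts all 9 fitted differences between cGas null and cGas +/+ libraries were below 0, and by edgeR 0 of the 9 and 0% of all genes were called. Medians were -0.35 for the 9 genes, 0.02 over all genes tested and -0.40 for those markers. The fit carried sex as a term, but the cGas null libraries were from 4 males and the cGas +/+ ones from 2 males and 4 females. The part of sex and of cell types in these differences was not tested. In F/+ hearts Casp8 had 4.21, 4.13, 5.43 and 5.09 CPM in cGas null hearts, against a lowest, median and highest value of 4.97, 5.76 and 8.02 CPM in cGas +/+ hearts. These overlapped too, at a log2 fold change of -0.55 ± 0.22 (SE, unadjusted p = 0.0175, adjusted p = 0.993 by edgeR). DESeq2 called 0 of the 9 in both of these comparisons. Cgas itself was not called by edgeR in Lmna F/F hearts (log2 fold change -1.71 ± 0.33, SE, adjusted p = 0.260). Nor was it called in Lmna F/+ hearts (-1.54 ± 0.40, SE, adjusted p = 0.993), though its libraries did not overlap in either comparison. A count of 0 called genes therefore does not show that cGas loss changed none. The 4 QuantSeq comparisons share their groups pairwise, so their values are not independent of each other.

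Genes around these 9 were read from 5 lists, chosen like the 9 with earlier results of these data known. Their counts stand beside 16.2% of all genes called as higher and 13.0% as lower at 2 weeks, 3.74% and 0.891% in QuantSeq hearts with cGas, and 0.500% and 0.0270% in those without. Among inflammasome sensors and helpers, 7 of 11 genes tested were higher in Lmna F/F than in +/+ hearts at 2 weeks, 0 were lower, and the median log2 fold change was 1.60. Mefv, the sensor pyrin, averaged 2.21 ± 2.06 CPM in F/F and 0.04999 ± 0.0298 CPM in +/+ hearts (SD, n = 5 and 7). Nlrp1a had a log2 fold change of 3.38 ± 0.69 (SE) and Naip2, a sensor of bacterial secretion systems, 1.90 ± 0.38. In QuantSeq hearts with cGas 0 of 8 sensors and helpers were higher and 1 was lower, Txnip, a thioredoxin-binding protein known to bind NLRP3, at -0.90 ± 0.24 (SE, adjusted p = 0.0303 by edgeR). Without cGas 0 of 8 were called in either direction by edgeR, with 2 at an unadjusted p under 0.05.

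Of the pyroptosis executioners and inflammasome products, 7 of 9 were higher at 2 weeks and 0 lower, with a median log2 fold change of 0.97. Il1b, the cytokine matured by caspase-1, averaged 6.34 ± 4.81 CPM in F/F and 0.757 ± 0.542 CPM in +/+ hearts (SD, n = 5 and 7). Panx1, a membrane channel that caspases open, averaged 9.97 ± 4.52 CPM in F/F and 1.66 ± 0.397 CPM in +/+ hearts, with no overlap. Il18, the other cytokine matured by caspase-1, had a log2 fold change of 1.69 ± 0.46 (SE). In QuantSeq hearts with cGas 2 of 8 were higher, Il1b at 2.34 ± 0.44 and Panx1 at 1.61 ± 0.31 (log2, SE), and without cGas 0 of 8 were called by edgeR, with 2 at an unadjusted p under 0.05.

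In death receptor and necroptosis signalling 8 of 26 genes were higher at 2 weeks and 0 lower. That share was above the 16.2% of all genes called as higher and near the 29.2% called in either direction. The median log2 fold change of 0.22 was smaller than those of the lists above. The called genes with the largest changes were Zbp1, a nucleic acid sensor that engages RIPK3, Tnf, the ligand of the TNF receptor, and Tnfaip3, a ubiquitin-editing brake on that receptor's signal. Zbp1 averaged 24.0 ± 13.99 CPM in F/F and 1.72 ± 0.75 CPM in +/+ hearts (SD, n = 5 and 7), a log2 fold change of 3.60 ± 0.52 (SE, adjusted p = 2.68e-05 by edgeR). Tnf changed by 2.23 ± 0.62 and Tnfaip3 by 1.13 ± 0.27 (log2, SE). In QuantSeq hearts with cGas 2 of 26 were higher. Zbp1 averaged 8.29 ± 5.04 CPM in F/F and 2.19 ± 0.656 CPM in F/+ hearts (SD, n = 6 each) without overlap, at a log2 fold change of 1.77 ± 0.40 (SE, adjusted p = 0.0127 by edgeR). Tnfrsf1a, the TNF receptor itself, was the other, at 0.76 ± 0.19 (SE). Without cGas 0 of 26 were called by edgeR, with 4 at an unadjusted p under 0.05.

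Of the mitochondrial apoptosis genes 4 of 17 were higher at 2 weeks and 0 lower, with a median log2 fold change of 0.23. That share is between the 16.2% of all genes called as higher and the 29.2% called at all, so the count is no result about this list. Pmaip1, which encodes the BH3 protein NOXA, was higher by 2.19 ± 0.61 (log2, SE), and Bid, the BH3 protein cut by caspase-8, by 1.10 ± 0.28. In QuantSeq hearts 0 of 16 were called by edgeR either with cGas, where 1 had an unadjusted p under 0.05, or without it, where 2 had. Whether the lists differ from each other in how often they changed was not tested.

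Among inhibitors of inflammatory caspases, of interleukin-1 and of necroptosis, 5 of 9 were higher at 2 weeks and 0 lower, with a median log2 fold change of 1.37. Il1rn, the antagonist of the interleukin-1 receptor, averaged 11.8 ± 8.66 CPM in F/F and 0.169 ± 0.162 CPM in +/+ hearts (SD, n = 5 and 7), a log2 fold change of 5.66 ± 0.69 (SE, adjusted p = 4.88e-06 by edgeR). Serpinb1a, a serpin that restrains inflammatory caspases, averaged 29.5 ± 17.95 CPM in F/F and 4.86 ± 1.54 CPM in +/+ hearts, and Il1r2, the decoy receptor, had a log2 fold change of 2.42 ± 0.62 (SE). In QuantSeq hearts with cGas 2 of 8 were higher, Il1rn at 3.40 ± 0.50 and Serpinb1a at 1.38 ± 0.33 (log2, SE). Il1rn was also the 1 gene of these 5 lists called without cGas, averaging 2.46 ± 1.74 CPM in F/F and 0.139 ± 0.0734 CPM in F/+ cGas null hearts (SD, n = 4 each), at 4.38 ± 0.69 (log2, SE, adjusted p = 0.00497 by edgeR). At 1 week and at 11 days 0 genes of these 5 lists were called by edgeR, with at most 3 genes of a list at an unadjusted p under 0.05.

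**Figure D5:**
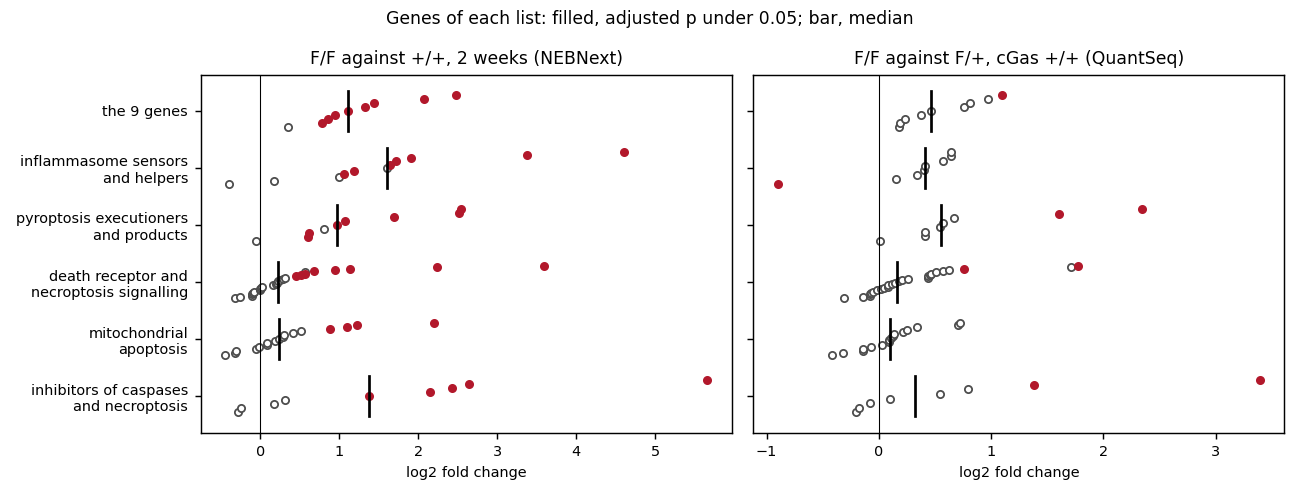
Log2 fold changes (x axis) of the 9 genes and of the members of the 5 surrounding lists (rows), each point a gene, filled where the adjusted p of edgeR was under 0.05, with a bar at the median, for Lmna F/F against +/+ hearts of 2 weeks (left) and Lmna F/F against F/+ hearts with cGas (right). The median is 1.10 for the 9 genes and 0.22 for death receptor and necroptosis signalling on the left, and 0.47 for the 9 genes on the right.

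Levels between genes were compared on the deposited TPM, which allow for length. In Lmna F/F hearts of 2 weeks Gsdmd averaged 22.3 ± 10.6 TPM, Casp8 12.7 ± 6.63, Pycard 11.9 ± 4.14, Casp4 8.87 ± 3.58, Mlkl 7.94 ± 2.72, Ripk3 7.19 ± 4.22, Casp1 6.80 ± 2.60, Ripk1 4.26 ± 1.38 and Nlrp3 1.26 ± 0.946 (SD, n = 5). In +/+ hearts of 2 weeks the order was Gsdmd at 8.74 ± 1.20 TPM, Pycard 6.90 ± 1.65, Casp8 4.44 ± 1.03, Mlkl 2.68 ± 0.532, Casp1 2.08 ± 0.587, Ripk3 2.01 ± 0.406, Casp4 2.00 ± 0.683, Ripk1 1.85 ± 0.173 and Nlrp3 0.123 ± 0.0681 (SD, n = 7). Gsdmd stood first and Nlrp3 last in both groups, and Casp4 had rank 4 in F/F and rank 7 in +/+ hearts. From Casp8 to Casp1 in F/F hearts, and from Casp1 to Ripk1 in +/+ hearts, neighbours differed by less than their SD.

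The 2 genes most like each of the 9 across the 46 libraries were found by the root mean square difference of log2(CPM + 1), centred within sequencing pools, among 13648 genes tested in both kits. Casp1 was closest to Trim30a (0.236) and Tmsb4x (0.251), and Casp4 to Sat1 (0.268) and Anxa1 (0.271), while Casp1 and Casp4 were each other's nearest among the 9 (0.290). Casp8 was closest to Lyn (0.183) and Zc3h12d (0.213), Ripk1 to Fem1b (0.161) and Adss (0.178), Ripk3 to Arl4c (0.217) and Rap2b (0.230), and Mlkl to Sp100 (0.189) and Ttk (0.195). Gsdmd was closest to Prelid1 (0.188) and Parp12 (0.188), Nlrp3 to Tspan32 (0.187) and Sptlc2 (0.188), and Pycard to Mydgf (0.196) and Rpl7 (0.203). The libraries share genotype groups and cell makeup, and low genes differ little on this scale whatever their pattern, so the measure is a description.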

How the data were processed

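Adult heart RNA was sequenced in 46 libraries, 26 with NEBNext and 20 with QuantSeq. The authors deposited raw read counts for 55359 genes, after alignment to mm39 with STAR 2.7.9, as the submitters' processing notes list them. Counting tool, annotation and strand setting: not given in the sources used here. Genes that overlap others on the opposite strand (Ripk1 with Serpinb6a, for example) may therefore share reads. The authors also deposited TPM for NEBNext libraries, with gene lengths not stated. The QuantSeq columns of that table equal CPM, computed from the deposited counts and the total of each library (largest difference 4.66e-10).

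Each kit was fitted separately in R 4.3.3 with edgeR 4.0.16: TMM factors, filterByExpr by group (minimum count 10, total 15), and glmQLFTest with sex and, within 2 weeks, pool as covariates. The Benjamini-Hochberg threshold was 0.05 over all genes tested. Alternatives used DESeq2 1.42.0, and limma 3.58.1 on counts or on log2(TPM + 1) or log2(TPM + 0.1), besides other filters, scalings, covariates and sets of libraries. An atrial marker covariate and a fit on male libraries were added after seeing the data. The scripts were tested on simulated data.

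The 9 genes and all lists were chosen with earlier results of these data known. Named besides the 9 are Lmna and Cgas, up to 3 called genes per list and direction with the largest changes, and 2 genes of like pattern per gene; 1 gene that this rule names is not reported here. Replicate numbers follow sample order and pair nothing. Sequences are from RefSeq; the reference build differs from mm39, so no other coordinates are given.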

Additional observations from a re-analysis of the deposited data

Results flagged for a closer look

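In 3 gene and group pairs a library stood apart from the rest of its group. Mlkl had 5.58 CPM in Lmna +/+ library 1 of 1 week, while the others had 2.86 to 3.33 CPM. Casp1 had 4.36 CPM in Lmna +/+ library 5 of 1 week, while the others had 1.78 to 2.39 CPM. Pycard had 13.5 CPM in Lmna F/+ cGas +/+ library 3, while the others had 16.2 to 16.8 CPM. These are 3 of 72 gene and group pairs looked at, and the pairs share libraries. For normally spread values chance alone gives about 1 in 20 such cases, and that spread was not tested. Without +/+ library 1 of 1 week, as without each other library of 1 week in turn, 0 of the 9 genes were called at 1 week.

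The Lmna F/F effect at 2 weeks minus that at 1 week differed from 0 by edgeR for 6 genes: 0.91 for Ripk1, 1.39 for Ripk3, 1.24 for Mlkl, 1.03 for Casp8, 1.79 for Casp1 and 2.26 for Casp4, all on the log2 scale. Of all genes tested, 12.4% were called in this contrast, 6.52% above 0. Each time was sequenced in pools of its own, so a difference between pools and one between times cannot be told apart.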

How the results depend on the processing

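No fold change that passed its test in the main fit changed sign under any alternative run. Pycard at 2 weeks did not pass in the main fit. It passed, above 0, in 6 of 24 alternatives and was -0.20 (log2) in pool KIUC033 alone. At 2 weeks 8 of 9 genes were called, 8 or 9 without each library in turn, 9 in pool KIUC035 alone (3 F/F and 2 +/+ libraries, 4894 genes called of 15068 tested) and 0 in pool KIUC033 alone (2 F/F and 5 +/+ libraries, 349 of 13970), against 4562 of 15627 in both. The 2-week minus 1-week effect called 5 to 7 genes under all alternatives, beside 3.82% to 18.9% of all genes tested. In QuantSeq hearts with cGas the count was 1, and it was 2 with no filter on low counts (Casp4 and Casp1), beside 3.96% of all genes. It was 0 among male libraries alone, and 0 to 2 without each library in turn. Over all genes the last gave 190 to 1169 calls, against 686. Without cGas the count was 0, and 1 (Casp4) with no filter, beside 1.72% of all genes. The cause was not tested. The 1-week, 11-day and cGas contrasts gave 0 of 9 throughout. Without TMM factors the median of all genes at 2 weeks was 0.29 instead of 0.04, and in QuantSeq hearts with cGas 0.15 instead of -0.01. No paired analysis was possible because the labels give no replicate numbers shared between groups. Nlrp3 and, in QuantSeq, Ripk3 are limited by their low counts.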
